A study of Mus musculus with 8 samples.

Results

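The 33 genes described here encode enzymes of glucose breakdown to pyruvate and lactate, and enzymes of the pentose phosphate pathway, which glucose 6-phosphate enters. They also encode subunits of the complex that turns pyruvate into acetyl-CoA in mitochondria, and the kinases and phosphatase that control this step. They were chosen by symbol, and all 33 were found among the 24394 gene symbols shared by the 8 deposited tables. The tables describe endothelial cells sorted by FACS from the brains of C57BL/6J mice on postnatal day 8. The 4 YT-ECKO libraries came from animals carrying VE-cadherin-CreERT2 together with Yapf/f and Tazf/f: a Cre driven by the endothelial VE-cadherin promoter, which works only when tamoxifen is given, recombines floxed alleles of Yap and of Taz. The 4 WT libraries came from animals labelled wild type. The labels do not say whether WT animals carried floxed alleles, Cre or received tamoxifen, so these cannot be told apart from the deletion. They also do not say whether each library is a separate mouse, and p-values measure only the spread between these libraries.

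Endothelial cells draw most of their ATP from glycolysis, and sprouting vessels depend on it. Hexokinase (Hk1, Hk2) traps glucose in the cell, phosphofructokinase (Pfkl, Pfkm, Pfkp) commits it to glycolysis, and pyruvate kinase (Pkm) makes pyruvate, which lactate dehydrogenase (Ldha, Ldhb) turns into lactate. Enzymes of the PFKFB family set the level of fructose 2,6-bisphosphate, the strongest activator of phosphofructokinase, and Pfkfb3 is the family member best known for driving glycolysis in sprouting endothelium. YAP and TAZ (gene symbols Yap1 and Wwtr1) are transcriptional co-activators that bind TEAD factors and have been tied to glycolytic gene expression in other cells.

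Among the 22 members with enough reads to test, Pfkfb3 had the largest log2 difference from WT, and none passed the test over all genes. Because the level of Pfkfb3 is the value the results turn on, the 250 bases upstream of both its RefSeq starts are shown. For comparison, 1 of 2 windows is shown for Ldha, the most abundant member per kilobase of exon, picked because it holds the motif. The sequences are RefSeq promoter windows on GRCm38.p6, written 5′ to 3′ on the strand of the gene and ending at the base before the RefSeq start. GENCODE starts Pfkfb3 at 11554077 and Ldha at 46841475. By these starts the first Pfkfb3 window lies partly within the gene, and the other windows lie wholly within their genes. Capitals mark ACGTG or its reverse complement CACGT, a form of the core of the site bound by hypoxia-inducible factors. It is called the hypoxia core below. Other forms of that core, such as GCGTG, were not searched for or marked, and the marked letters are not particular to these factors.
Pfkfb3, chr2:11553930-11554179, minus strand: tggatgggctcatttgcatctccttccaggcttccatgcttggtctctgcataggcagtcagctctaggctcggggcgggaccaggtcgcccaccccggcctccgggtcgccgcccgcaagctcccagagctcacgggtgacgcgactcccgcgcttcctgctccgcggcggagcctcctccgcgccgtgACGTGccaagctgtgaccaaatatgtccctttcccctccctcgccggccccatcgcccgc
Pfkfb3, chr2:11502091-11502340, minus strand: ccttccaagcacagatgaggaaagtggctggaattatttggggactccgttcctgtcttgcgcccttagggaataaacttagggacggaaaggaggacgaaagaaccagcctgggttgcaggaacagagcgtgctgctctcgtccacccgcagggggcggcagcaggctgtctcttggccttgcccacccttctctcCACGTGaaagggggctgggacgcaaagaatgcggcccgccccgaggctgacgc
Ldha, chr7:46845554-46845803, plus strand: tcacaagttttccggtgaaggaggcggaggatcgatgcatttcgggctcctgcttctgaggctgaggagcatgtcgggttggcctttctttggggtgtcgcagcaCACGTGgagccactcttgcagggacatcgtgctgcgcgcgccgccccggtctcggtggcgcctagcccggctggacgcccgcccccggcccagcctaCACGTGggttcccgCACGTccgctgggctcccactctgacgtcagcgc
Both Pfkfb3 windows and this Ldha window hold the hypoxia core. The TEAD core GGAATG, or its reverse complement CATTCC, would also have been in capitals and is not in these 3 windows. The table held windows for 32 of the 33 members, 52 in all, and 16 of these (30.8%) held the hypoxia core, against 16.6% of the 32851 windows of all genes. The TEAD core was in 6 of the member windows (11.5%), against 12.6% of all windows. Windows of the same gene can overlap and share a match, as for Aldoa. By gene, 12 of the 32 members held the hypoxia core and 5 the TEAD core. No such count by gene was made for all genes. The median GC content was 59.4% in member windows and 52.4% in all windows. A match describes letters in a window and is not evidence of binding.

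The deposited log2 values were returned to the linear scale and are called scaled reads, which are read counts brought by the authors to a nearly common library size. Levels below are in scaled reads, and 4 values in a row are those of replicates 1 to 4. Library totals were 10.3 to 10.9 M scaled reads, at an implied depth of 6.66 to 13.6 M reads in YT-ECKO and 7.45 to 16.8 M reads in WT. The members together took 0.192% to 0.237% of a YT-ECKO library and 0.160% to 0.225% of a WT library. All 8 endothelial markers examined were above 0 in every library, and they summed to between 64720 and 87550 in YT-ECKO and between 64740 and 77840 in WT. Summed markers of other cell types overlapped between the groups. Erythroid genes summed to 13990 to 49490 in YT-ECKO and 14250 to 38680 in WT, astrocyte genes to 793 to 1471 in YT-ECKO and 828 to 1578 in WT, and mural genes to 156 to 1130 in YT-ECKO and 353 to 1593 in WT. Oligodendrocyte genes summed to 0 to 1182 in YT-ECKO and 0 to 329 in WT, and microglial and leukocyte genes to 0 to 130 in YT-ECKO and 0 to 161 in WT. The sum of 10 neuronal markers reached 1896 in YT-ECKO 1 and 879 in YT-ECKO 4, of which Rbfox3 made up 1375 and 489, and was at most 187 in the other 6 libraries. Of these markers, 6 (Syt1, Gad1, Gad2, Nefl, Nefm and Slc17a7) were listed at 0 in all 8 libraries. Xist stood at 6299, 8434, 4150 and 6.91 in the YT-ECKO libraries and at 17930, 8255, 22930 and 4611 in the WT libraries, and 4 Y-linked genes summed to 486 to 1379 in YT-ECKO and 4.43 to 471 in WT; sex is not given in the labels. In sorted bulk cells, fewer cells of one type and less RNA per cell cannot be told apart.

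Both targeted genes were lower in all 4 YT-ECKO libraries than in any WT library. Wwtr1 stood at 348, 2608, 1261 and 1124 in the YT-ECKO libraries, against 8220, 5906, 6756 and 5650 in the WT libraries. Yap1 stood at 9.29, 605, 293 and 402 in the YT-ECKO libraries, against 2833, 1726, 1409 and 1887 in the WT libraries. Among YT-ECKO libraries, YT-ECKO 1 had the least and YT-ECKO 2 the most of both transcripts. The labels do not name the floxed exons, and reads from outside them count toward the same symbol, so these levels do not measure the deletion itself.

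The groups were compared with limma on log2(scaled reads + 128), a scale that understates changes in genes with low levels. Genes reaching 10 scaled reads in 4 or more libraries were tested, 8706 in all, and Benjamini-Hochberg adjustment ran over all of them. Of the 33 members, 22 were tested and 0 passed an adjusted p of 0.05, by limma or by voom on rebuilt reads, while 3 of all tested genes passed by limma (0.0345%). That total was 1 without WT 1, 0 without WT 2 and 6 without YT-ECKO 3. At an unadjusted p under 0.05 there was 1 member, Pfkfb3, with a lower level in YT-ECKO; of all tested genes 5.47% met that p, 3.69% with lower and 1.78% with higher values. The groups overlapped for every tested member, while 3.40% of all tested genes showed no overlap. YT-ECKO values were higher for 12 tested members and lower for 10, and their median log2 difference was 0.02, beside 43.1% higher, 56.9% lower and a median of -0.09 over all tested genes. The distance from a member's difference to the end of its 95% interval had a median of 1.12 (log2). That interval is not adjusted for the number of genes tested, so the adjusted test needs larger differences than its width shows. The spread of a tested member within a group had a median SD of 0.67 in YT-ECKO and 0.45 in WT, and it was larger in YT-ECKO for 16 of 22 members (72.7%) beside 64.6% of all tested genes.

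**Figure D1:**
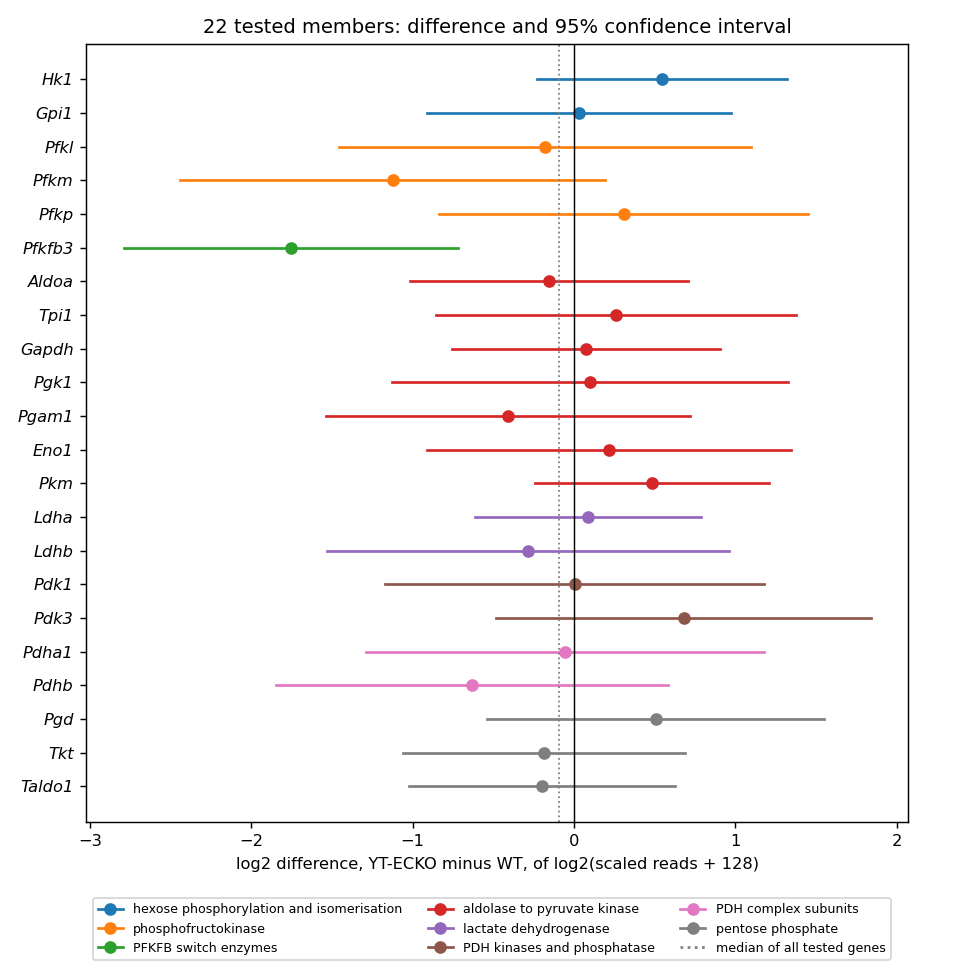
Log2 difference of each tested member, YT-ECKO minus WT, on the log2(scaled reads + 128) scale (x axis), with the 95% confidence interval from limma as a line, coloured by role in the pathway; the dotted line is the median of all tested genes (-0.09). The interval of Pfkfb3, from -2.79 to -0.72, is the one that does not include 0.

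**Figure D2:**
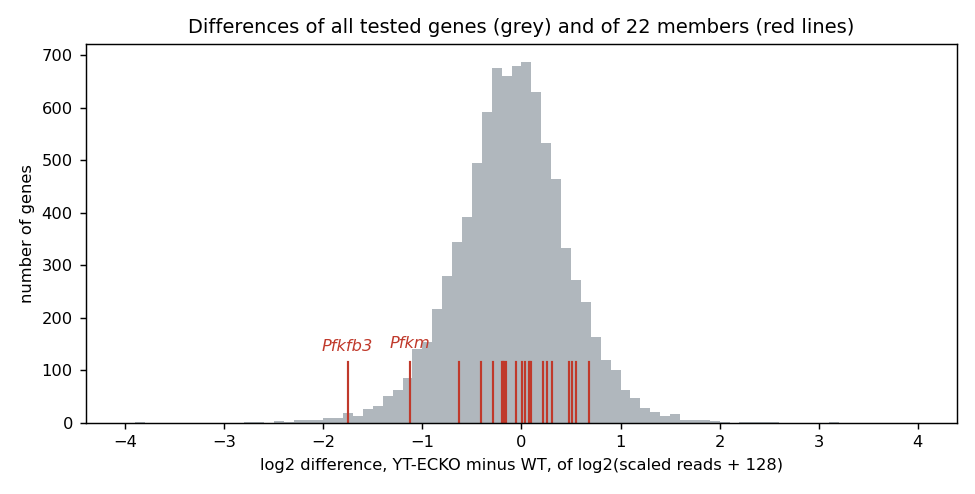
Histogram of the log2 differences of the 8706 tested genes (grey, number of genes on the y axis), with the 22 tested members as red lines. Apart from Pfkfb3 and Pfkm, the members lie between -0.63 and 0.68, within the bulk of all genes.

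Pfkfb3 (ENSMUSG00000026773, chromosome 2, 11471433 to 11554077, minus strand, GRCm38) stood at 246, 2687, 393 and 974 in the YT-ECKO libraries, against 3888, 2419, 2710 and 2578 in the WT libraries. YT-ECKO 1, 3 and 4 had less than any WT library, and YT-ECKO 2 lay within the WT range. The mean was 1075 ± 1120 in YT-ECKO and 2899 ± 671 in WT (SD, n = 4 each), so the YT-ECKO mean was 37.1% of the WT mean. The log2 difference was -1.76 ± 0.50 (SE), and limma gave an unadjusted p of 0.00194 and an adjusted p of 0.468. Of all tested genes, 52 (0.597%) had a difference as low or lower, and 36 a p as small or smaller, Pfkfb3 included in both.

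The library with the least Yap1 and Wwtr1, YT-ECKO 1, had the least Pfkfb3, and the library with the most of both, YT-ECKO 2, had the most. The remaining pair had the same order in Pfkfb3 as in Yap1 and the opposite order in Wwtr1. With 4 libraries this order was not tested. YT-ECKO 1 also had the fewest symbols above 0 of the YT-ECKO libraries (7538), and YT-ECKO 2 had the most (8762). By implied reads YT-ECKO 1 was the shallowest of them (6.66 M), while YT-ECKO 3 was the deepest (13.6 M). The part of depth and detection in this order was not tested. Without YT-ECKO 2 the log2 difference of Pfkfb3 was -2.31 ± 0.46 (SE) and its limma adjusted p was 0.0634. With the neuronal marker sum as a covariate it was -1.38 ± 0.52 (SE), and without both YT-ECKO 1 and YT-ECKO 4, the libraries with the high neuronal sums, it was -1.30 ± 0.53 (SE), with limma adjusted p-values of 0.856 and 0.672. GENCODE places 1 gene on each strand within the Pfkfb3 locus (Gm10851 and Gm37975). Since the strand setting of the counting is not given, reads from these cannot be told apart from Pfkfb3. The same limit holds for other members that overlap an annotated gene, among them Hk1, Pfkm, Pfkp, Aldoa, Pkm and Pdha1.

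**Figure D3:**
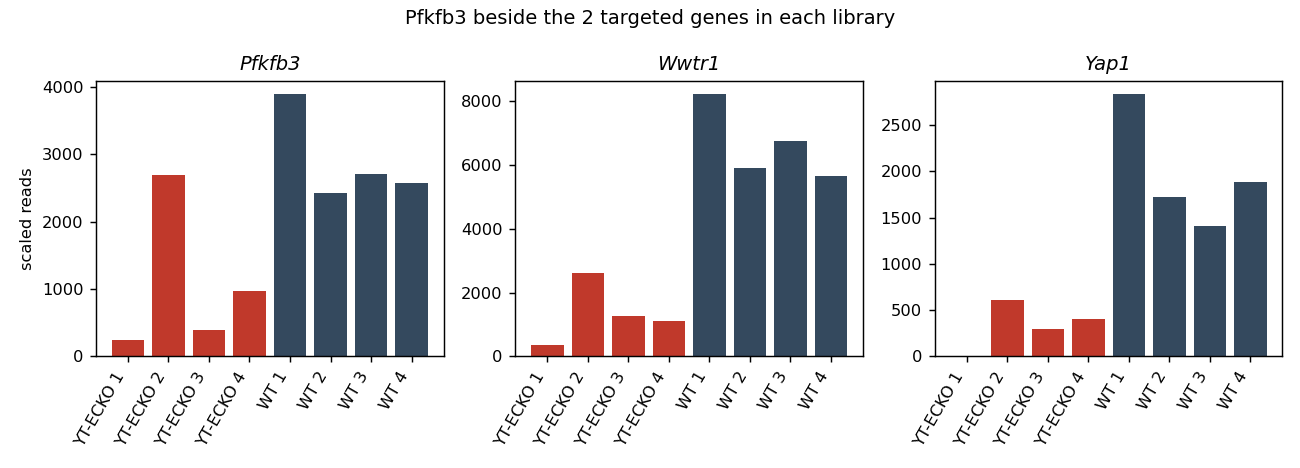
Scaled reads (y axis) of Pfkfb3, Wwtr1 and Yap1 in the 4 YT-ECKO libraries (red) and the 4 WT libraries (dark). Pfkfb3 is lowest in YT-ECKO 1 (246) and as high in YT-ECKO 2 (2687) as in WT libraries, and the targeted genes are also lowest in YT-ECKO 1 and, among YT-ECKO libraries, highest in YT-ECKO 2. Of the YT-ECKO libraries, YT-ECKO 1 also has the fewest symbols above 0 (7538) and YT-ECKO 2 the most (8762).

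The 3 other PFKFB genes were too low to test. Pfkfb1, the liver and muscle form, was listed at 0 in all 8 libraries. Pfkfb2, the heart form, stood at 0, 3.53, 258 and 0 in the YT-ECKO libraries, against 101, 0, 126 and 0 in the WT libraries. Pfkfb4 was above 0 in WT 1 alone, at 106 scaled reads. Pfkfb3 was thus the one PFKFB gene with reads in every library.

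Hexokinase and glucose 6-phosphate isomerase gave no call. Hk1 (chromosome 10, 62268855 to 62379908, minus strand), the constitutive mitochondria-bound hexokinase, stood at 2145, 1829, 3751 and 2023 in the YT-ECKO libraries, against 1989, 1121, 1930 and 1366 in the WT libraries. YT-ECKO 1, 3 and 4 lay above all WT libraries, and YT-ECKO 2 lay within the WT range. The log2 difference was 0.55 ± 0.38 (SE; limma adjusted p = 0.981), with a 95% interval from -0.23 to 1.32, and it was 0.33 without YT-ECKO 3. Hk2, the inducible hexokinase, was listed at 0 in every YT-ECKO library and stood at 0, 0, 70.3 and 75.6 scaled reads in the WT libraries, so it was not tested. Gpi1, which converts glucose 6-phosphate to fructose 6-phosphate, averaged 937 ± 497 scaled reads in YT-ECKO and 844 ± 132 in WT (SD, n = 4 each), a difference of 0.03 ± 0.46 (SE).

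The phosphofructokinase genes gave no call. Their reads summed to 137, 1393, 1728 and 817 in the YT-ECKO libraries, against 1222, 1022, 1019 and 1051 in the WT libraries, a mean of 1019 ± 698 in YT-ECKO and 1078 ± 96.8 in WT (SD, n = 4 each). The means lay close together while the YT-ECKO libraries spread on both sides of the WT range. Pfkm, the muscle subunit, stood at 0, 303, 811 and 0 in the YT-ECKO libraries, against 664, 434, 390 and 519 in the WT libraries. Its difference of -1.12 ± 0.64 (SE; unadjusted limma p of 0.0914, adjusted p of 0.960) was the second lowest among members. The difference was 0.0341 without YT-ECKO 1 and YT-ECKO 4 together, but these are the 2 libraries where Pfkm was at 0. It was -1.70 without YT-ECKO 3, where the unadjusted limma p was 0.0137. With 2 libraries at 0, its size also depended on the pseudocount: it was -4.47 with a pseudocount of 1, -4.46 when the deposited log2 was used directly and -4.28 with voom, with unadjusted limma p-values of 0.0601, 0.0613 and 0.0560. Pfkl, the liver subunit, stood at 4.67, 467, 308 and 3.46 in the YT-ECKO libraries, against 244, 393, 117 and 28.8 in the WT libraries. The libraries with almost no Pfkl were the same as those with no Pfkm, and both also carried the high neuronal marker sums. Of the YT-ECKO libraries, these were also the shallowest (6.66 M and 9.45 M implied reads, against 12.1 M and 13.6 M), with the fewest symbols above 0 (7538 and 8408, against 8762 and 8643) and the highest share of Rn45s, a ribosomal RNA precursor (13.8% and 14.8%, against 10.8% and 8.97%). The part of depth and Rn45s in the zeros was not tested. With that sum as a covariate the differences were -0.42 for Pfkm, 0.31 for Pfkl and 0.65 for Pfkp. Pfkp, the platelet subunit, stood at 132, 623, 609 and 814 in the YT-ECKO libraries, against 315, 195, 513 and 503 in the WT libraries. Pfkp reads made up 96.6%, 44.7%, 35.3% and 99.6% of the reads of the 3 genes, not corrected for length, in the YT-ECKO libraries, against 25.7%, 19.1%, 50.3% and 47.9% in the WT libraries, and these shares overlapped between the groups. The differences of Pfkl and Pfkp were -0.18 ± 0.62 and 0.31 ± 0.56 (SE), with limma adjusted p-values of 0.994 and 0.991. The difference of Pfkl was 0.0962 without WT 2, 0.143 without YT-ECKO 1 and 0.148 without YT-ECKO 4, and it reached -0.58 without YT-ECKO 2. That of Pfkp was 0.0966 without YT-ECKO 4, 0.107 without WT 2 and 0.715 without YT-ECKO 1.

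From aldolase to pyruvate kinase, 7 of 9 genes were tested; YT-ECKO values were higher for 5 and lower for 2, and the median difference was 0.10 (log2). Pkm (chromosome 9, 59656368 to 59679375, plus strand) stood at 3661, 4702, 2558 and 2864 in the YT-ECKO libraries, against 2346, 3626, 1514 and 2390 in the WT libraries. All 4 YT-ECKO libraries lay above WT 1, 3 and 4, and WT 2 lay among them. The log2 difference was 0.48 ± 0.35 (SE; limma adjusted p = 0.981), with a 95% interval from -0.24 to 1.21, and it was 0.28 without WT 3. Aldoa, the main aldolase outside liver, stood at 3000, 1423, 880 and 1189 in the YT-ECKO libraries, against 2168, 2098, 1154 and 1376 in the WT libraries. YT-ECKO held both the highest and the lowest value, and the difference was -0.15 ± 0.42 (SE; limma adjusted p = 0.991), or 0.0672 without YT-ECKO 3.

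The steps between aldolase and pyruvate kinase gave no call. Tpi1, triosephosphate isomerase, averaged 445 ± 174 scaled reads in YT-ECKO and 355 ± 160 in WT (SD, n = 4 each). Pgk1, phosphoglycerate kinase, averaged 268 ± 228 in YT-ECKO and 211 ± 104 in WT. Pgam1, phosphoglycerate mutase, averaged 341 ± 231 in YT-ECKO and 444 ± 65.5 in WT. The 95% interval of the difference included 0 for each of these 3 genes, with estimates of 0.26 for Tpi1, 0.10 for Pgk1 and -0.41 for Pgam1 (log2). Aldoc, the aldolase of astrocytes and neurons, was above 0 in WT 2 alone (139 scaled reads), and Eno2, the neuronal enolase, was listed at 0 in all 8 libraries.

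Gapdh, usually among the most abundant transcripts of a cell, reached only 37.0, 37.2, 132 and 82.8 scaled reads in the YT-ECKO libraries, against 98.3, 126, 8.65 and 25.9 in the WT libraries. In the GENCODE transcripts 74 other genes, 70 of them pseudogenes, match Gapdh over at least 200 bases at 95% identity or more, the most of any member, while Pgk1 had 4 such copies, Eno1 and Ldha 3 each, and 6 other members 1 each. No source used here says how reads matching several places were counted, so the levels of these 10 members are uncertain. Eno1, the main enolase, stood at 126, 123, 319 and 168 in the YT-ECKO libraries, against 128, 41.6, 155 and 250 in the WT libraries. Its retrogene copy Eno1b had 1.38 to 2.42 times as many scaled reads as Eno1 in YT-ECKO and 2.07 to 2.72 times as many in WT. The differences of Gapdh (0.08 ± 0.40, SE) and Eno1 (0.22 ± 0.55, SE) had 95% intervals that included 0.

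Lactate dehydrogenase gave no call. Ldha (chromosome 7, 46841475 to 46855627, plus strand), which encodes the subunit favouring lactate formation, stood at 6526, 3163, 3646 and 5993 in the YT-ECKO libraries, against 4498, 6081, 2376 and 5420 in the WT libraries, with wide overlap. The difference was 0.09 ± 0.34 (SE; limma adjusted p = 0.994), and its 95% interval from -0.62 to 0.79 was among the narrowest of the members. It was -0.19 without WT 3, -0.0772 without YT-ECKO 1 and -0.0371 without YT-ECKO 4. Ldhb, the subunit favouring pyruvate formation, stood at 243, 411, 0 and 0 in the YT-ECKO libraries, against 395, 261, 46.8 and 75.6 in the WT libraries. Ldhb reads, not corrected for length, were 0% to 11.5% of the reads of the pair in YT-ECKO and 1.38% to 8.06% in WT. The difference of Ldhb was -0.29 ± 0.61 (SE; limma adjusted p = 0.991), and 0.0159 without YT-ECKO 3 or without YT-ECKO 4. Per kilobase of annotated exon, Ldha had the highest mean level of all members in WT (1460 in YT-ECKO and 1388 scaled reads per kilobase in WT), followed in WT by Taldo1 (808 in YT-ECKO and 903 in WT). The part of the transcript that the reads come from is not settled by the labels, which limits this order.

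**Figure D4:**
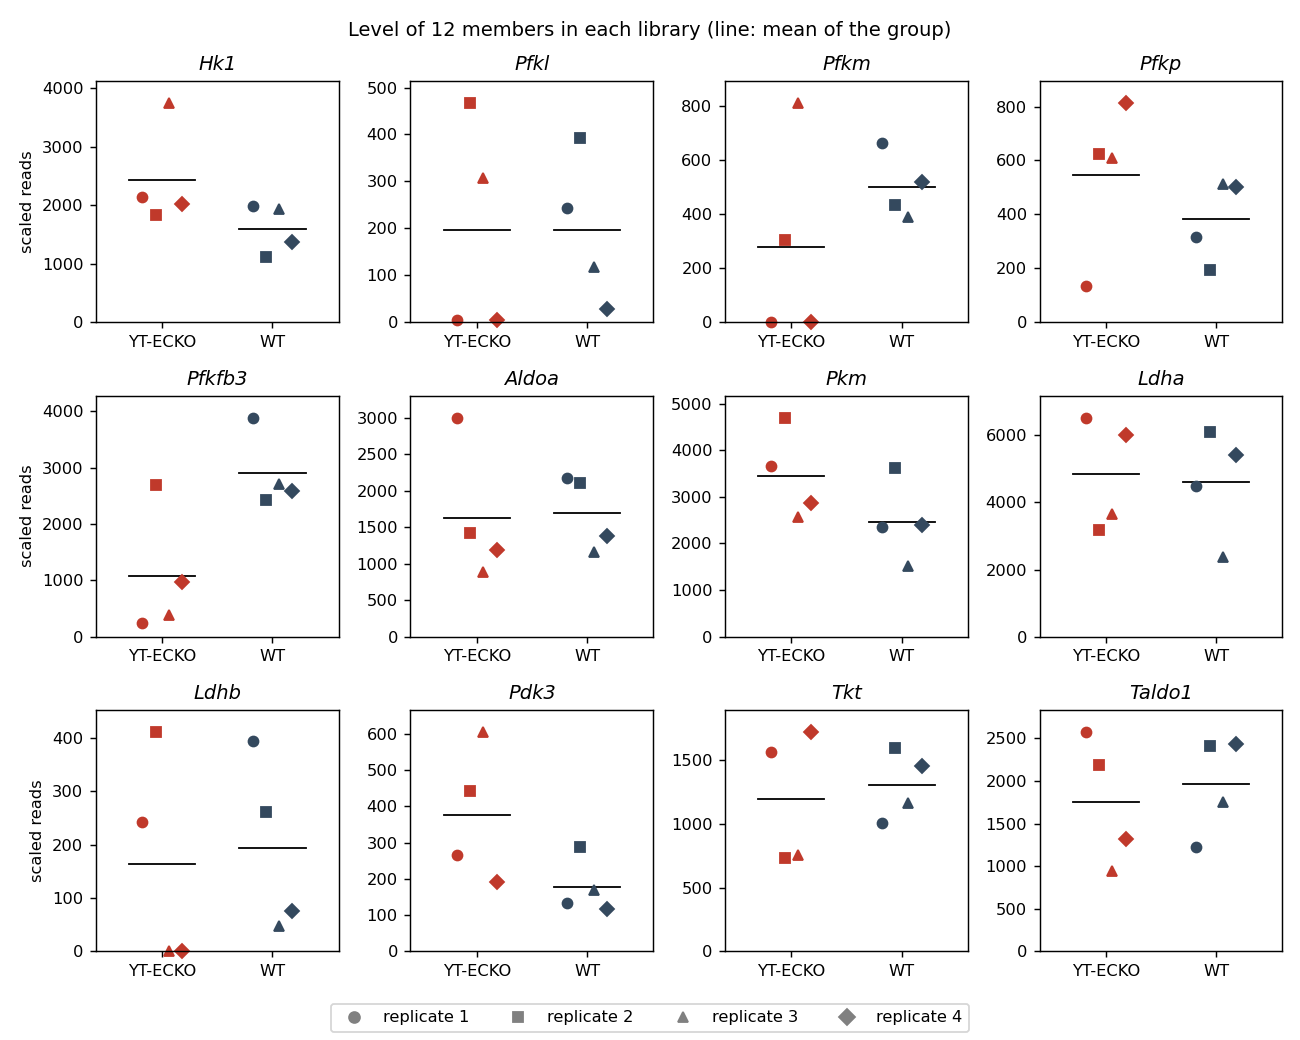
Scaled reads (y axis, from 0) of 12 members in each library, YT-ECKO in red and WT in dark, with replicate numbers as symbols and the group mean as a line. In the Pfkfb3 and Pfkm panels 3 of 4 YT-ECKO points lie below every WT point; Pfkl and Pfkm are at or near 0 in YT-ECKO 1 and YT-ECKO 4, and the Ldha, Tkt and Taldo1 points overlap.

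The conversion of pyruvate to acetyl-CoA in mitochondria is held back by the PDH kinases (Pdk1 to Pdk4), which phosphorylate the pyruvate dehydrogenase complex. It is restored by the phosphatase Pdp1. Pdk3 was the kinase gene with reads in every library, at 266, 441, 605 and 191 in the YT-ECKO libraries, against 135, 288, 170 and 117 in the WT libraries. YT-ECKO 2 and 3 lay above all WT libraries. The difference was 0.68 ± 0.56 (SE; limma adjusted p = 0.990), the largest positive one among tested members. Pdk1, a hypoxia-responsive kinase gene, stood at 223, 168, 92.9 and 0 in the YT-ECKO libraries, against 534, 2.91, 134 and 0 in the WT libraries. Each group held 1 library at 0, and the highest value was in WT 1. Pdk2 was listed at 0 in all 8 libraries, and Pdk4 was above 0 in YT-ECKO 4 (55.1) and WT 3 (219). Pdp1 reached 1176 in YT-ECKO 1, against 277 in WT 1. It had 11.5 in YT-ECKO 4, and the other 5 libraries listed it at 0.

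Subunits of the pyruvate dehydrogenase complex gave no call. Pdha1, the catalytic alpha chain, averaged 221 ± 150 scaled reads in YT-ECKO and 221 ± 161 in WT (SD, n = 4 each), a difference of -0.05 ± 0.60 (SE). Pdhb, the beta chain, stood at 0, 317, 2.28 and 169 in the YT-ECKO libraries, against 240, 338, 32.0 and 336 in the WT libraries, a difference of -0.63 ± 0.59 (SE; limma adjusted p = 0.990). Dlat, the acetyltransferase core, did not exceed 7.08 scaled reads in YT-ECKO or 114 in WT and was not tested. Of the 33 members, 5 are X-linked (Pfkfb1, Pgk1, Pdk3, Pdha1 and G6pdx), and the part of the uneven sex-linked transcripts in their values was not tested.

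Of the pentose phosphate genes, 3 of 4 were tested. G6pdx, which encodes the entry enzyme glucose 6-phosphate dehydrogenase, was above 0 in YT-ECKO 2 (25.7 scaled reads), WT 3 (2.58) and WT 4 (42.8) and was not tested. Pgd, which carries the second oxidative step, stood at 436, 434, 912 and 1497 in the YT-ECKO libraries, against 584, 390, 577 and 377 in the WT libraries. YT-ECKO 3 and 4 lay above all WT libraries, and the difference was 0.51 ± 0.51 (SE; limma adjusted p = 0.990). Taldo1 and Tkt encode the transaldolase and transketolase that return pentoses to glycolysis. Taldo1 stood at 2574, 2183, 946 and 1316 in the YT-ECKO libraries, against 1226, 2417, 1757 and 2439 in the WT libraries, with the highest and the lowest value both in YT-ECKO. Tkt averaged 1192 ± 521 in YT-ECKO and 1304 ± 270 in WT (SD, n = 4 each). Their differences were -0.20 ± 0.40 and -0.19 ± 0.42 (SE), with limma adjusted p-values of 0.991 for both, and that of Taldo1 was 0.0426 without YT-ECKO 3. The difference of Tkt ran from -0.377 without YT-ECKO 4 to -0.00985 without YT-ECKO 2.

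Of 59 further genes of these pathways found in the tables, 25 were tested, and by limma 0 passed the adjustment over all genes; values were higher for 11 and lower for 14, with a median difference of -0.16 (log2). At an unadjusted p under 0.05 there was 1, Tigar, which encodes a fructose 2,6-bisphosphatase. Tigar stood at 0, 0, 6.88 and 35.6 in the YT-ECKO libraries, against 0, 128, 154 and 318 in the WT libraries, and WT 1 overlapped YT-ECKO. Its difference was -0.88 ± 0.41 (SE), for an unadjusted limma p of 0.0437 and an adjusted p of 0.897. Without YT-ECKO 1, 2 or 3 the unadjusted limma p was 0.0808, 0.0849 and 0.0777.

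The genes for glucose and lactate transport gave no call. Slc2a1, the glucose transporter of the blood-brain barrier, stood at 5293, 4433, 4454 and 4297 in the YT-ECKO libraries, against 3437, 5327, 5461 and 3596 in the WT libraries. All YT-ECKO values lay within the WT range. Its difference was 0.08 ± 0.30 (SE; 95% interval from -0.54 to 0.69; limma adjusted p = 0.994), and it was -0.0332 without WT 1 and -0.0123 without WT 4. Slc16a1, the lactate and pyruvate carrier MCT1, averaged 12850 ± 1893 in YT-ECKO and 16160 ± 1670 in WT (SD, n = 4 each), a difference of -0.33 ± 0.23 (SE; limma adjusted p = 0.980). Bsg, the chaperone of MCT1, averaged 62770 ± 12190 in YT-ECKO and 68620 ± 16070 in WT. Slc2a3, Slc16a3 and Slc16a7, which encode other glucose and lactate carriers, were listed at 0 in all 8 libraries.

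Of 21 genes of the response to hypoxia, 17 were tested and by limma 0 passed the adjustment; values were higher for 8 and lower for 9, with a median difference of -0.08 (log2). At an unadjusted p under 0.05 there was 1 gene, Ddit4. Hif1a, which encodes the oxygen-regulated subunit of HIF-1, stood at 35.5, 408, 634 and 467 in the YT-ECKO libraries, against 880, 509, 393 and 417 in the WT libraries, with a difference of -0.55 ± 0.57 (SE; limma adjusted p = 0.990). Without YT-ECKO 1, the library with the lowest Hif1a level, the difference was -0.0667, and without WT 1, the library with the highest, it was -0.34. Ddit4, a stress-induced inhibitor of mTORC1, stood at 4176, 2982, 2171 and 1985 in the YT-ECKO libraries, against 1934, 1063, 1559 and 1260 in the WT libraries. All YT-ECKO libraries lay above all WT libraries, as did 1.33% of tested genes, and the difference was 0.88 ± 0.37 (SE), for an unadjusted limma p of 0.0277 and an adjusted p of 0.872. The unadjusted limma p was 0.0543 to 0.0907 when WT 2, WT 4, YT-ECKO 1 or YT-ECKO 2 was left out.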

How the data were processed

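RNA of sorted brain endothelial cells was measured in 8 libraries, 4 YT-ECKO and 4 WT, grouped by title. Libraries were made with a Lexogen Quant-Seq kit from 500 ng of Trizol-extracted total RNA, per the labels' protocols. Bowtie2, edgeR and the mm10 build are named in the submitters' processing notes, and the sources used here do not give versions, counting tool, annotation or strand setting. Log2 values were deposited by the authors, 1 table per library, and 0 was the lowest value. After exponentiation (a listed 0 kept at 0), 88.3% to 100% of values under 12 lay within 0.1 of a whole multiple of a step that differed between libraries. The total divided by the step gave the implied depth. Where a step is under 1, genes with a single read are listed at 0, so a 0 is not read as absence. The pseudocount of 128 was picked among powers of 2 without use of the group difference, for an even within-group SD from low to high genes (ratio of 1.84 between the extreme bins).

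The test was limma 3.58.1 in R 4.3.3 with trended and robust moderation, YT-ECKO minus WT, without covariates. It was tried on libraries simulated with an assumed spread. There it called 4 of 100 2-fold changes and 62 of 100 4-fold changes at an adjusted p under 0.05. The changed genes were drawn only from genes above a set mean level. Tested members such as Gapdh, Eno1, Pdhb and Pfkl have lower means, and these rates do not cover them. A gene without a call may therefore still differ 2-fold, and the simulation sets no limit for the lower members. Members and lists were chosen with earlier results of these data known. Values in every library are given for members with an unadjusted p under 0.05 or no overlap, the 6 with the highest mean, Hk1, Hk2, Pfkl, Pfkm, Pfkp, Pfkfb3, Ldha and Ldhb; others shown by library were chosen after their values were seen. Other pathway and hypoxia genes are named at an unadjusted p under 0.05 or without overlap, with Slc2a1, Slc16a1 and Hif1a; Bsg, Slc2a3, Slc16a3, Slc16a7 and Eno1b were added after their values were seen. Positions and exon lengths are from GENCODE M21 (GRCm38), and near-identical copies were found with blastn 2.17.0. Alternatives covered pseudocount, filter, scaling, moderation, voom, the replicate block and each library left out. A covariate for Xist or for the neuronal list, and leaving out YT-ECKO 1 and 4 together, were added after seeing the data.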

Additional observations from a re-analysis of the deposited data

Results flagged for a closer look

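In groups of 4 libraries, a library was picked out where its gap to the nearest other took most of the range of its group. For normally distributed values this rule picks out about 1 in 20 groups. Values here include many zeros, and a group with a single library above 0 is always picked out, so that rate does not apply. Of the 67 groups examined, 11 were picked out, 6 of them because a single library was above 0. Of the genes with reads in all 8 libraries, Hk1 was high in YT-ECKO 3 (3751 scaled reads) and Slc2a1 was high in YT-ECKO 1 (5293). Genes with several libraries at or near 0 gave the rest, all of them high values. These were Pfkfb2 in YT-ECKO 3 (258), Pfkfb4 in WT 1 (106), Aldoc in WT 2 (139), and Pdk4 in YT-ECKO 4 (55.1) and WT 3 (219). Pdp1 was high in YT-ECKO 1 (1176) and WT 1 (277), and G6pdx in YT-ECKO 2 (25.7) and WT 4 (42.8).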

How the results depend on the processing

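The number of members called was 0 under all 24 alternatives, and the median difference of the tested members stayed between -0.12 and 0.09, within the spread of the library medians (SD 0.24). Pfkfb3 stayed lower in YT-ECKO in all 24, from -2.31 to -1.30, with an unadjusted p between 3.95e-05 and 0.0252 and an adjusted p between 0.0634 and 0.978. The number of all genes called (3 as reported) was 0 with a pseudocount of 1, 0 when the deposited log2 was used directly, 0 without a filter and 0 with voom, where 419, 423, 600 and 525 genes had an unadjusted p under 0.05. It was 1 without trend and robust moderation, 1 with the neuronal covariate, 5 with the Xist covariate, and 0 to 6 with a library left out. No pairing by replicate number was seen: same-numbered libraries had correlations of their deviations from the group means between -0.04 and 0.08, and 1 of 4 correlated best with its own number. Such low correlations cannot exclude a pairing. With the replicate block, 5 genes and 0 members were called and Pfkfb3 stood at -1.76.

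Several differences near 0 changed sign. The larger one of Pfkm (-1.12) did so in 1 of the 24 alternatives, where YT-ECKO 1 and 4 were left out together. With a library left out, Ldha ranged from -0.19 to 0.26, Pfkl from -0.58 to 0.15, Aldoa from -0.48 to 0.0672, Ldhb from -0.68 to 0.0159, Taldo1 from -0.40 to 0.0426 and Slc2a1 from -0.0332 to 0.18. With the Xist covariate, Pfkl was 0.35, Aldoa 0.0019, Ldha -0.21 and Ldhb 0.25. With the neuronal covariate, Pfkl was 0.31 and Ldha -0.24. Without YT-ECKO 1 and 4, Pfkl was 0.79, Pfkm 0.0341 and Ldha -0.34. In these libraries Pfkm was at 0 and Pfkl near 0, so leaving them out takes away the low values themselves. With a pseudocount of 1, genes with libraries at or near 0 gave larger differences: -4.47 for Pfkm, -1.63 for Pfkl, -1.02 for Hif1a and -3.61 for Tigar. The cause of the sign changes was not tested. Tigar did not pass the filter in 6 of the 24 alternatives and has no value there. Depth and listed zeros limit the low genes most: 13 members were at 0 in some libraries and above 0 in others.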
